A study of Mus musculus with 7 samples.

Results

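A set of 10 immediate early genes of the mouse was examined: Fos, Fosb, Jun, Junb, Egr1, Ier2, Atf3, Nr4a1, Dusp1 and Zfp36. They were chosen by gene symbol, and all 10 were found among the 21861 rows of the deposited count table. RNA came from the retinal pigment epithelium (RPE) of aged mice, a pigmented sheet of cells that supports the photoreceptors. The 3 AAV-GFP libraries came from mice given an adeno-associated virus (AAV) vector with GFP, and the 4 AAV-GSTA4 libraries from mice given AAV with GSTA4, a glutathione transferase that conjugates reactive lipid aldehydes. All 7 libraries were collected 12 weeks after treatment, and no untreated or young group was analysed here. The mouse strain, the exact age, the promoter of the vectors and the number of animals behind each library are not given in the sources used here. P-values therefore measure the spread between these libraries, which may be partly technical.

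Immediate early genes are transcribed within minutes of a stimulus, without new protein synthesis, when kinase pathways activate factors that are already bound to their promoters. Serum response factor with its ternary complex partners and CREB are the best known of these factors. Many of the products are transcription factors of the AP-1, EGR and NR4A families, and others, such as the phosphatase DUSP1 and the RNA-binding protein ZFP36, shut the response down. Their transcripts are short-lived, and in tissue they also respond to dissection and dissociation.

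Total counts lay between 15329181 and 28998964 per library, and 3 counts, taken as the smallest detectable level, corresponded to 0.103 to 0.196 CPM, the read count scaled to library size. The CPM values below are scaled by the trimmed mean of M values (TMM) unless stated otherwise. AAV-GFP replicate 3 stood apart from the others: it correlated with the rest at a mean r of 0.838 (log2 CPM), where the other 6 reached 0.910 to 0.926, and its TMM factor was 1.36, against 0.868 to 1.05. The hGSTA4 row had 1 to 3 counts in the AAV-GFP libraries and 4209, 5239, 45 and 1184 counts in AAV-GSTA4 replicates 1 to 4, which separated the groups as labelled. The d2EGFP row did not separate the groups in the same way, with 99 counts in AAV-GFP replicate 1 and 163 in AAV-GSTA4 replicate 1. RPE markers were abundant in all 7 libraries: the 19 listed markers summed to 24517 CPM in AAV-GFP replicate 3 and to between 58676 and 113176 CPM in the other 6.

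The promoters of 4 of the genes are shown because these genes differ in exact matches to a half-site through which CREB-family factors bind. Each stretch is the 250 bases before the RefSeq start of the gene, written in the direction of transcription from the RefSeq table of GRCm38.p6. Capitals mark the cyclic AMP response element half-site TGACG on either strand, the TATA box TATAAA and the AP-1 site TGANTCA.
Fos (chr12:85473640-85473889, plus strand): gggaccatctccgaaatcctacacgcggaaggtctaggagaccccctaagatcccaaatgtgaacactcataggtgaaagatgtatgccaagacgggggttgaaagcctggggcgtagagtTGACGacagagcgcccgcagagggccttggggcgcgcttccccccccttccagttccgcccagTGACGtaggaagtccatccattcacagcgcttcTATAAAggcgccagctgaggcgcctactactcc
Nr4a1 (chr15:101266596-101266845, plus strand): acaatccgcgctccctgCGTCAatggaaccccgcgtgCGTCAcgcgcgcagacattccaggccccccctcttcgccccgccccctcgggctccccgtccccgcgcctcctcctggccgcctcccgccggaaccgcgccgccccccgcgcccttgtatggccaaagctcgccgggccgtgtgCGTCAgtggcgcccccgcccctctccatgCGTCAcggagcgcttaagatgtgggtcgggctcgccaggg
Dusp1 (chr17:26508473-26508722, minus strand): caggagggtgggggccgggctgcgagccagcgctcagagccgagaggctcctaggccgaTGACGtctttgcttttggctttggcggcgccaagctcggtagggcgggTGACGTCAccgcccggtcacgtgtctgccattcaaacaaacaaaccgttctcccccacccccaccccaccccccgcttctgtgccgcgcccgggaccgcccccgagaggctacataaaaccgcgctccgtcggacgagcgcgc
Jun (chr4:95052223-95052472, minus strand): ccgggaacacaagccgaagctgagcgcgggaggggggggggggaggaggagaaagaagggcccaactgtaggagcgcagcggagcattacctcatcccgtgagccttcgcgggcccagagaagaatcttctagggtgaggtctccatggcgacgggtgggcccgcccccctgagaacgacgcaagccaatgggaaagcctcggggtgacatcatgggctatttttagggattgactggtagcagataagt
The table matched 8 of the 10 genes, all but Egr1 and Ier2. The half-site TGACG was present in 6 of the 8 (Fos, Fosb, Junb, Atf3, Nr4a1 and Dusp1), and in 17.8% of the 32841 promoters of the same length. Nr4a1 held 4 of them, Dusp1 3 and Fos 2, whereas Jun and Zfp36 held none. The whole palindrome TGACGTCA, which contains a half-site on each strand, occurred in Dusp1, 143 to 136 bases before the start, and in 1.55% of all promoters. Fos had the TATA box TATAAA 33 to 28 bases before the start, a string found in 12.4% of promoters on either strand. The AP-1 site TGANTCA was found in none of the 8 windows and in 6.75% of promoters. The CArG box, to which serum response factor binds, was matched in Zfp36 alone of the 8 and in 1.47% of promoters. Motifs were searched on both strands as exact matches of each pattern, so near matches were not counted. The Jun window holds tgacatca, which differs from the palindrome TGACGTCA in a single letter. A match or its absence describes only these 250 letters.

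Fos, the founding AP-1 subunit, measured 3.96, 3.82 and 3.89 CPM in AAV-GFP replicates 1 to 3, and 8.83, 3.79, 2.82 and 2.43 CPM in AAV-GSTA4 replicates 1 to 4. The AAV-GFP libraries were nearly equal, while the AAV-GSTA4 libraries lay on both sides of them, with replicate 1 highest of all 7. Its gene lies at chr12:85473890-85477273 on the plus strand (GENCODE M21, GRCm38). The related subunit Fosb was barely detected, with 10, 3 and 2 counts in AAV-GFP and 7, 7, 2 and 27 counts in AAV-GSTA4. It was the member that did not pass the expression filter, and 3 of its 7 libraries were at or under the floor of 3 counts.

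Jun, the main dimer partner of FOS, measured 16.6, 18.7 and 35.6 CPM in AAV-GFP and 16.8, 15.2, 4.05 and 15.96 CPM in AAV-GSTA4. AAV-GFP replicate 3 was above and AAV-GSTA4 replicate 3 below the other 5 libraries, which lay close together. Junb, an AP-1 subunit that often opposes JUN, was at 27.7, 20.4 and 21.7 CPM in AAV-GFP and at 18.3, 10.1, 7.40 and 21.7 CPM in AAV-GSTA4. AAV-GSTA4 replicates 2 and 3 were the lowest for Junb, and AAV-GSTA4 replicate 4 was level with the AAV-GFP libraries. Atf3, a stress-induced partner of JUN that mostly represses, was at 6.43, 4.86 and 9.50 CPM in AAV-GFP and at 3.58, 5.80, 2.11 and 4.42 CPM in AAV-GSTA4. The groups overlapped for all 3 genes. In the M21 annotation, exons of Jun overlap the antisense gene Junos and exons of Junb overlap Prdx2 on the opposite strand, and the strand setting of the counting is not given in the sources used here.

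Egr1, a zinc-finger factor induced by serum and growth factors, was the most variable of the 10 genes. It measured 4.796, 6.25 and 17.8 CPM in AAV-GFP and 41.2, 3.79, 1.41 and 2.95 CPM in AAV-GSTA4. The highest and the lowest library thus belonged to the same group and differed 29.3-fold. Nr4a1, an orphan nuclear receptor of the immediate early class, was at 1.77, 2.58 and 3.89 CPM in AAV-GFP and at 6.62, 1.82, 1.88 and 2.51 CPM in AAV-GSTA4. AAV-GSTA4 replicate 1 was highest for it too, and AAV-GFP replicate 3 second. Ier2, a small nuclear protein of early growth response, was at 6.98, 7.25 and 11.1 CPM in AAV-GFP and at 12.2, 6.04, 3.17 and 5.68 CPM in AAV-GSTA4. The same pair of libraries stood at the top, and AAV-GSTA4 replicate 3 at the bottom.

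Dusp1, a nuclear phosphatase that inactivates MAP kinases, was the most abundant of the genes. It measured 57.8, 48.995 and 50.1 CPM in AAV-GFP, where the 3 libraries differed 1.18-fold. In AAV-GSTA4 it measured 52.6, 21.8, 2.58 and 33.5 CPM, a 20.4-fold span. The low value rested on 44 counts, with a 95% Wilson interval of 1.92 to 3.47 CPM, and lay 8.44-fold below the next library. Zfp36, the tristetraprolin gene, whose product destabilises AU-rich transcripts including several immediate early ones, was at 8.01, 12.96 and 18.5 CPM in AAV-GFP and at 12.5, 7.43, 7.10 and 18.1 CPM in AAV-GSTA4. It spanned 2.60-fold over the 7 libraries, the smallest span of the 10 genes, and both groups covered nearly the same range. Exons of Dusp1 overlap those of Ergic1 on the opposite strand, and those of Zfp36 overlap the antisense gene Gm44710. All intervals cover counting error only, because no molecular identifiers are described.

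**Figure D1:**
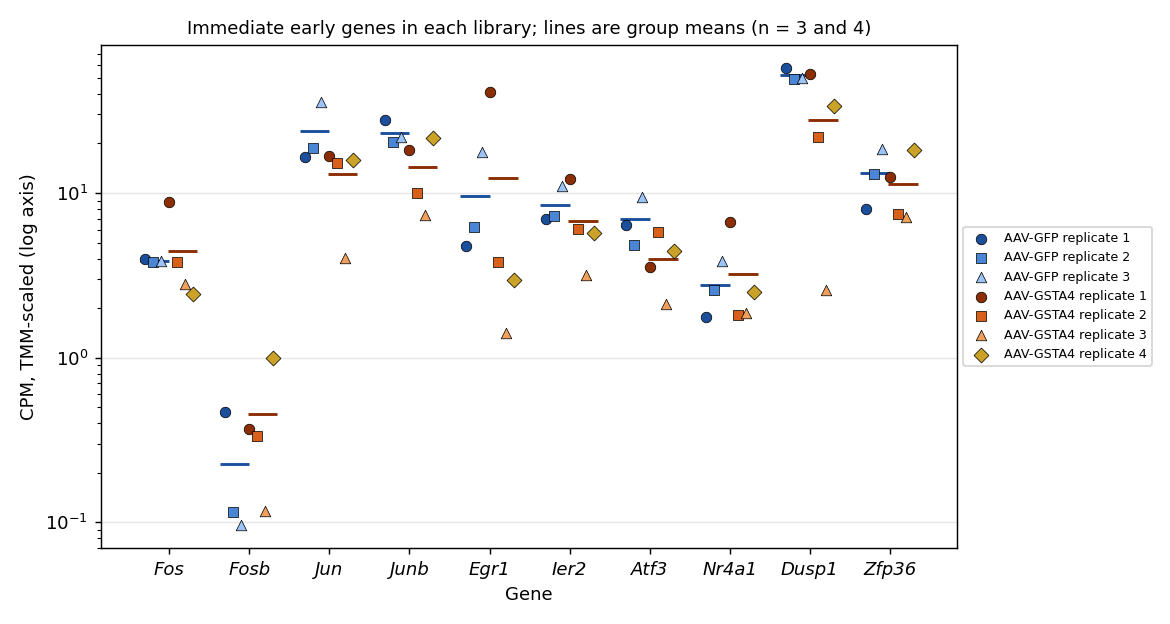
TMM-scaled CPM (log axis) of the 10 genes in each of the 7 libraries, with 1 point per library and a line at each group mean (n = 3 and n = 4). Dusp1 in AAV-GSTA4 replicate 3 sits at 2.58 CPM, while the other 6 libraries lie between 21.8 and 57.8 CPM, and Egr1 in AAV-GSTA4 replicate 1 sits at 41.2 CPM, above every other library.

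Levels between genes were compared per kilobase of merged exon in GENCODE M21, as the mean over the 7 libraries. Dusp1 was highest at 11.5 CPM per kb ± 6.05 (SD, n = 7), then Junb at 7.91 ± 3.09 and Jun at 5.51 ± 2.92. Ier2 followed at 4.92 ± 2.07 CPM per kb, Zfp36 at 3.48 ± 1.40, Egr1 at 2.49 ± 3.19, Atf3 at 2.43 ± 1.09, Fos at 1.79 ± 0.901 and Nr4a1 at 0.858 ± 0.5004, with Fosb last at 0.0571 ± 0.0508. From Dusp1 down to Fos, each neighbouring pair differed by less than the larger of its SDs, and none kept 1 order in all 7 libraries. Fos lay above Nr4a1, and Nr4a1 above Fosb, in 7 of 7 libraries. The rank of Egr1 above Atf3 rested on its high libraries, as Egr1 exceeded Atf3 per kb in 1 of 7 libraries.

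The 7 libraries were then compared with one another. AAV-GSTA4 replicate 3 was the low library: 7 of the 10 genes had their lowest CPM there (Jun, Junb, Egr1, Ier2, Atf3, Dusp1 and Zfp36), and all 9 that passed the filter were below their own mean. Over all 15075 genes tested, 14.6% had their lowest CPM in that library and 49.9% were below their own mean there. The median of the 9 genes was 1.15 log2 units below the genes' own means in that library, a value of -1.15, against 0.00078 for all genes tested. Fos and Nr4a1 were not lowest there, with 2.82 and 1.88 CPM against lowest values of 2.43 and 1.77 CPM elsewhere. Relative to the library total instead of TMM, 9 of the 10 genes were lowest in this library.

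At the other end, AAV-GSTA4 replicate 1 held the highest value of 4 genes (Fos, Egr1, Ier2 and Nr4a1) and AAV-GFP replicate 3 that of 3 (Jun, Atf3 and Zfp36). The median of the 9 genes was 0.81 log2 units above the own means in AAV-GSTA4 replicate 1 and 0.71 above in AAV-GFP replicate 3. In AAV-GFP replicates 1 and 2 it was 0.02 and 0.07, in AAV-GSTA4 replicate 2 it was -0.37, and in AAV-GSTA4 replicate 4 it was -0.10. For all genes tested the corresponding medians lay between 0.00078 and 0.06. AAV-GFP replicate 3 was also the library in which 32.2% of all genes tested had their highest and 29.4% their lowest CPM, so extreme values there were common to many genes.

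Summed over the 10 genes, the level was 134, 126 and 172 CPM in AAV-GFP and 173, 76.1, 32.6 and 108 CPM in AAV-GSTA4. The means of 144 ± 24.6 CPM (SD, n = 3) with GFP and 97.5 ± 59.1 CPM (SD, n = 4) with GSTA4 came from overlapping groups. As a share of the library total, the 10 genes took 0.0133%, 0.0132% and 0.0234% in AAV-GFP and 0.0167%, 0.00688%, 0.00283% and 0.0101% in AAV-GSTA4. The Wilson interval of the lowest share, 0.00261% to 0.00308%, did not reach that of the next, 0.00655% to 0.00723%. AAV-GSTA4 replicate 3 was also the library with the fewest d2EGFP counts, at 7, and, within its group, with the fewest hGSTA4 counts, at 45. The part of vector level in these values was not tested.

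**Figure D2:**
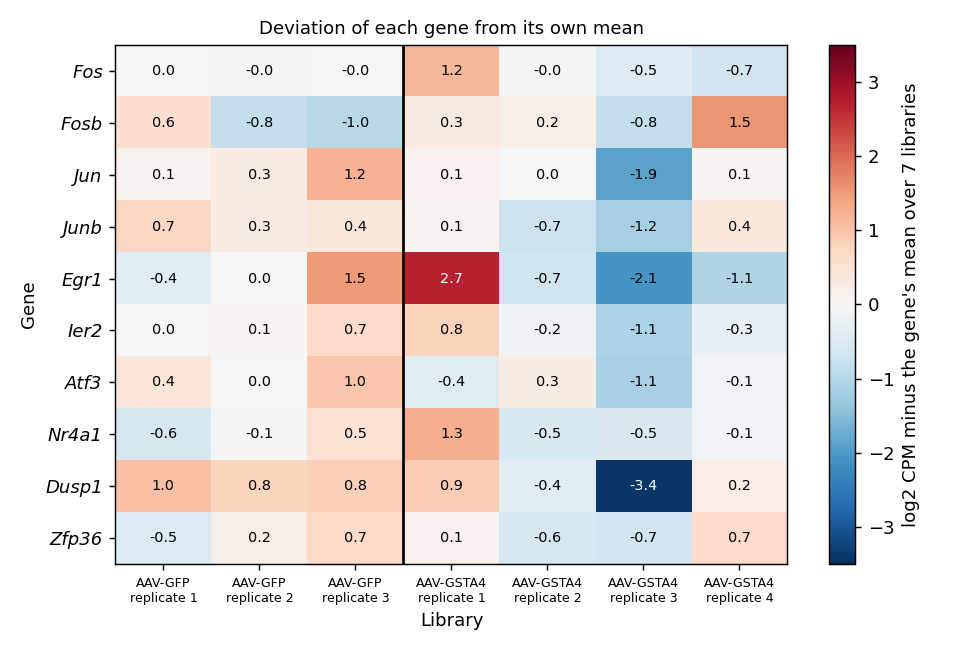
Deviation of log2 CPM from each gene's own mean over the 7 libraries (colour and printed value), with genes in rows, libraries in columns and a line between the groups. The column of AAV-GSTA4 replicate 3 is below the mean for every gene, most of all for Dusp1, and the columns of AAV-GFP replicate 3 and AAV-GSTA4 replicate 1 hold most of the high values.

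The highest and the lowest library differed 3.85-fold for the median of the 9 genes. Egr1 spanned 4.78 log2 units and Dusp1 4.44, ranges larger than those of 95.7% and 94.1% of all genes tested. For Jun this share was 83.9%, and for the remaining tested members it ran from 43.2% (Zfp36) to 68.1% (Atf3). The median range of the 9 genes was 1.91 log2 units, against 1.53 for all genes tested. Without AAV-GSTA4 replicate 3, the median of highest over lowest was 2.66. For Dusp1 the span went from 22.4-fold to 2.65-fold and for Jun from 8.80-fold to 2.34-fold, while for Egr1 it was still 13.98-fold.

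The comparison of AAV-GSTA4 with AAV-GFP asked whether the transgene changed these genes in the aged RPE. None of the 9 genes tested reached an adjusted p of 0.05 by the quasi-likelihood test of edgeR, and 0 of 9 had an unadjusted p-value under 0.05. Over all genes 0 of 15075 passed (0%), and 1794, or 11.9%, had an unadjusted p-value under 0.05 (5.27% higher and 6.63% lower). The hGSTA4 row, which separated the groups by counts, was thus not called by edgeR either. A lack of calls therefore does not show that the members were unchanged. DESeq2 called 201 genes, 1.33% of those tested, and limma-voom 146, with 0 of the 9 genes in either list. In DESeq2 the adjusted p-value was not assigned for Fos, Egr1, Atf3 and Nr4a1. In the self-test at this sample size, edgeR found 54 of 100 genes simulated with a 4-fold change and 1 of 100 with a 2-fold change, so a 2-fold change would rarely have been called. The self-test changed only genes with higher counts, drew genes independently and held no deviating library. With no changed genes, 4.79% of its unadjusted edgeR p-values were under 0.05, against 11.9% in the data. Its shares therefore do not carry over to single members.

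Of the 9 genes, 6 had a negative and 3 a positive log2 fold change, with a median of -0.32, beside -0.071 and 55.4% negative over all genes. With library totals in place of TMM all 9 were negative with a median of -0.64, but the median of all genes then moved to -0.37. No member separated the groups without overlap, beside 12.0% of all genes tested (6.44% higher and 5.61% lower with GSTA4), and 9 genes are too few to tell these shares apart. Dusp1 had the lowest estimate, at 52.3 ± 4.79 CPM (SD, n = 3) with GFP and 27.6 ± 20.96 CPM (SD, n = 4) with GSTA4. The estimate of -0.92 ± 0.68 (log2 fold change, SE) had a 95% interval of -2.44 to 0.60 (edgeR adjusted p = 0.603). Without AAV-GSTA4 replicate 3 it was -0.53.

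Jun was at 23.6 ± 10.4 CPM (SD, n = 3) with GFP and 13.0 ± 6.01 CPM (SD, n = 4) with GSTA4. The estimate of -0.86 ± 0.47 (log2 fold change, SE) had an interval of -1.92 to 0.20 (edgeR adjusted p = 0.490), and without AAV-GFP replicate 3 it was -0.43. Junb, at 23.3 ± 3.89 CPM (SD, n = 3) with GFP and 14.4 ± 6.74 CPM (SD, n = 4) with GSTA4, had a log2 fold change of -0.69 with an interval of -1.54 to 0.15. For Atf3, at 6.93 ± 2.36 CPM (SD, n = 3) with GFP and 3.98 ± 1.54 CPM (SD, n = 4) with GSTA4, the log2 fold change was -0.80 with an interval of -1.80 to 0.21. EdgeR gave Junb an adjusted p of 0.485 and Atf3 one of 0.498. These 4 genes and Ier2, at -0.32 with an interval of -1.36 to 0.72, kept a negative sign in all 16 alternatives that were run. Ier2 came to -0.071 both without AAV-GFP replicate 3 and without AAV-GSTA4 replicate 3. The alternatives share the same libraries, so a constant sign is not independent evidence.

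The sign of the other 4 genes depended on the processing. Egr1 was at 9.63 ± 7.15 CPM (SD, n = 3) with GFP and 12.3 ± 19.3 CPM (SD, n = 4) with GSTA4, a log2 fold change of 0.36 ± 1.05 (SE) with an interval of -1.99 to 2.71. The difference of mean log2 CPM had the opposite sign, at -0.66, and without AAV-GSTA4 replicate 1 the log2 fold change was -1.80 (edgeR adjusted p = 0.376). Fos, at 3.89 ± 0.0691 CPM (SD, n = 3) with GFP and 4.47 ± 2.97 CPM (SD, n = 4) with GSTA4, had a log2 fold change of 0.20 with an interval of -0.98 to 1.37, and of -0.34 without AAV-GSTA4 replicate 1. Nr4a1, at 2.75 ± 1.07 CPM (SD, n = 3) with GFP and 3.21 ± 2.30 CPM (SD, n = 4) with GSTA4, had a log2 fold change of 0.22 with an interval of -1.16 to 1.61, and of -0.39 without that library. Zfp36, at 13.1 ± 5.23 CPM (SD, n = 3) with GFP and 11.3 ± 5.18 CPM (SD, n = 4) with GSTA4, had a log2 fold change of -0.22 with an interval of -1.16 to 0.73, and of 0.10 without AAV-GFP replicate 3. Fosb, tested by itself, differed by 0.72 in mean log2 CPM (exact permutation test over 35 relabellings, two-sided, p = 0.371, where the smallest possible value is 0.0286).

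**Figure D3:**
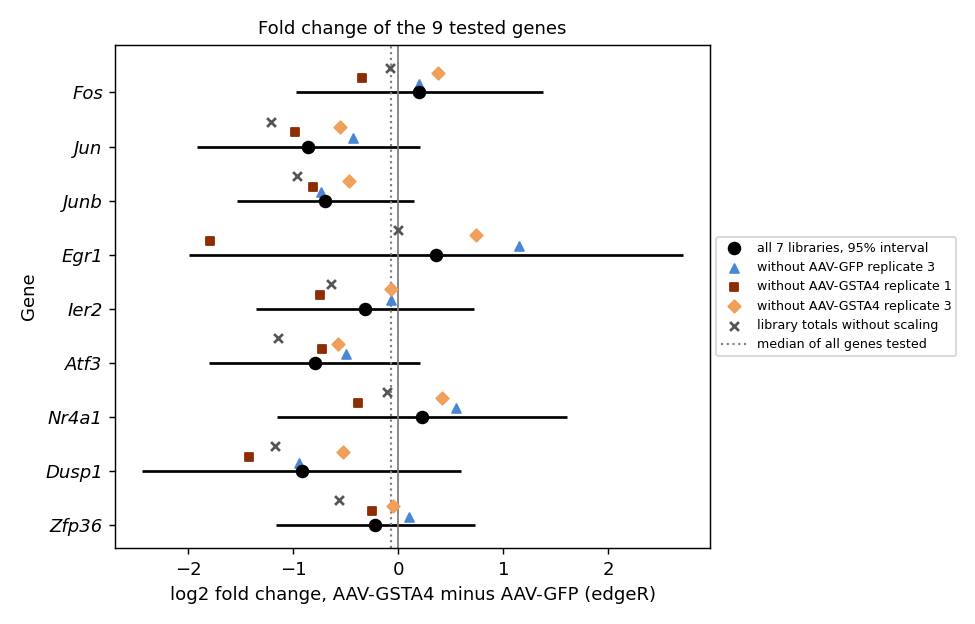
EdgeR log2 fold change, positive where higher with GSTA4, for the 9 genes tested, with 95% intervals (black) and the estimates without 1 library or with library totals (coloured marks). All 9 intervals include 0, and the marks of Fos, Egr1, Nr4a1 and Zfp36 lie on both sides of it.

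Single libraries shifted the median of these fold changes. Without AAV-GSTA4 replicate 1 all 9 were negative, with a median of -0.74. Without AAV-GSTA4 replicate 3 the median was -0.07, and without AAV-GFP replicate 3, where Fosb entered the test, 5 of 10 were negative and the median was 0.02. Y-linked transcripts were another difference, found in AAV-GFP replicate 1, AAV-GSTA4 replicate 3 and AAV-GSTA4 replicate 4 and almost missing elsewhere. Among the libraries with them (1 against 2), 8 of the 10 genes were lower in AAV-GSTA4 in mean log2 CPM, by up to -2.61. Among those without (2 against 2), 6 of 10 were lower, and the differences ran from -0.69 to 1.17. With this class as a factor in the model 0 of the 9 genes passed in edgeR's test.

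The genes varied together over the libraries to different degrees. All 36 pairs of the 9 genes had a positive Pearson r of log2 CPM over the 7 libraries, with a median of 0.62 and a range of 0.01 to 0.96, whereas 49.8% of all pairs of genes tested were positive. Adjusted over the 36 pairs, 1 passed 0.05. This was Egr1 with Ier2, at r = 0.957 (exact permutation p = 0.000198, adjusted 0.00714) while the rank correlation rho was 1 (exact permutation test of rho, p = 0.000397, adjusted 0.0143). The 7 libraries stood in the same order for both genes, and r was 0.974 without the 2 libraries farthest from the median of Egr1. No r was computed within a group, as each holds under 6 libraries.

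Jun with Dusp1 showed how far a single library carried a pair: r was 0.901 over 7 libraries (exact permutation p = 0.0244, adjusted 0.113) with a rho of 0.679 (same test, exact p = 0.109, adjusted 0.282), 0.698 without the 2 libraries farthest from the median of Jun, and 0.374 without AAV-GSTA4 replicate 3. Without that library 30 of the 36 pairs were positive and the median r was 0.36. Fos and Zfp36, at r = 0.01, had the lowest value of any pair. Junb with Dusp1 stood at 0.887 (exact permutation p = 0.0085, adjusted 0.0893) with a rho of 0.750 (same test, exact p = 0.0663, adjusted 0.239), and r was 0.840 without AAV-GSTA4 replicate 3 and 0.233 without the 2 libraries farthest from the median of Junb, so the relation rested on that pair of libraries.

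**Figure D4:**
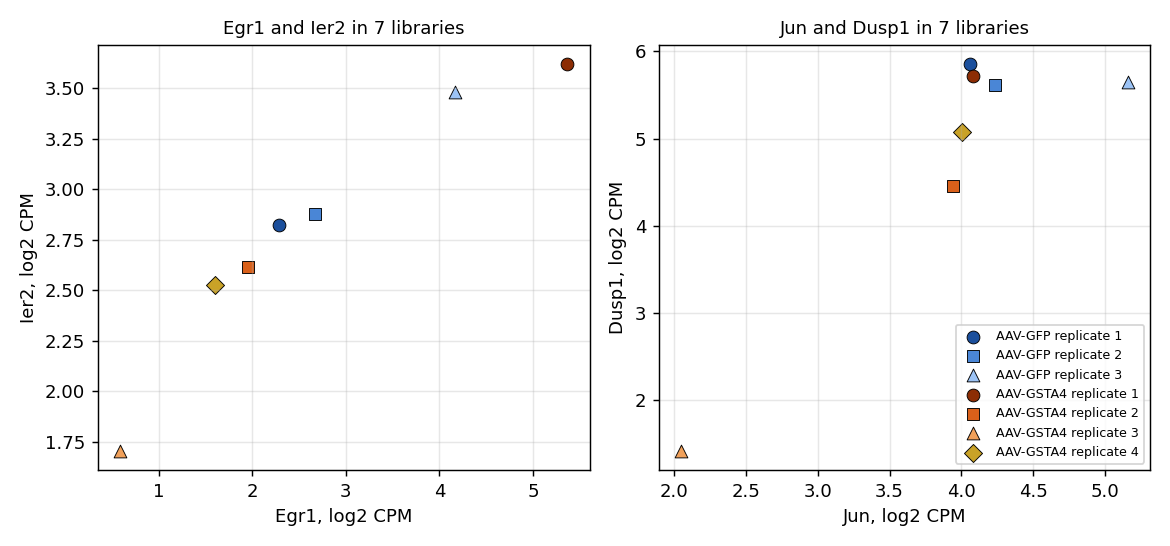
Log2 CPM of Ier2 against Egr1 (left) and of Dusp1 against Jun (right), with 1 point per library. For Egr1 and Ier2 the 7 libraries rise in the same order (rho = 1), whereas for Jun and Dusp1 AAV-GSTA4 replicate 3 lies alone at the lower left.

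Other genes of the pathway were examined in 5 lists, where edgeR called 0 genes after adjustment over all genes. Of 42 further immediate early genes found by symbol, 37 were tested, 29 with a negative and 8 with a positive log2 fold change. The median was -0.34, beside -0.071 for all genes. By unadjusted p-value, 6 were under 0.05 and all of them lower, where 6.63% of all genes tested were lower by the same rule. Cebpd, a C/EBP factor of the acute phase, measured 5.03, 4.13 and 9.36 CPM in AAV-GFP and 2.47, 1.29, 1.29 and 0.885 CPM in AAV-GSTA4, a log2 fold change of -2.05 ± 0.53 (SE). Tnfaip3, the ubiquitin editor A20 that restrains NF-kappaB, was at 52.8, 101 and 176 CPM and at 54.2, 54.0, 39.6 and 35.5 CPM, a log2 fold change of -1.26 ± 0.37 (SE). Klf4, a Krüppel-like factor, was at 9.27, 7.25 and 8.97 CPM and at 1.84, 2.30, 2.35 and 5.93 CPM, a log2 fold change of -1.44 ± 0.47 (SE). EdgeR gave all 3 an adjusted p of 0.363. For Cebpd and Klf4 every library with GSTA4 was lower than every library with GFP, and for Tnfaip3 the groups overlapped.

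Of the 18 other AP-1 and ATF genes, 15 were tested, 6 with a positive and 9 with a negative log2 fold change, 0 were under an unadjusted p of 0.05, and the median was -0.02. Jdp2, a repressor of AP-1, had a log2 fold change of -0.89, Batf of -1.98 and Atf7 of 0.40, and Batf was under 1.25 CPM in every library. All 41 upstream kinases and serum response or CREB factors found by symbol were tested, 28 negative and 13 positive, with a median of -0.24. Of them, 5 had an unadjusted p-value under 0.05 (1 higher and 4 lower), a share of the list near the 11.9% of all genes. Without AAV-GFP replicate 3 that median was -0.073. The kinase genes Map2k2 and Rps6ka5 (MSK1) had log2 fold changes of -1.01 and -1.04, and Nras had 0.52, where edgeR gave adjusted p of 0.383, 0.383 and 0.4004.

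Among the MAP kinase phosphatases and feedback inhibitors, 19 of 21 were tested, 10 positive and 9 negative, with a median of 0.12 (-0.22 with library totals) and 5 at an unadjusted p-value under 0.05 (2 higher and 3 lower). Dusp6, a cytoplasmic phosphatase specific for ERK, had a positive estimate, where that of Dusp1 was negative with an interval that included 0. It measured 117, 137 and 85.3 CPM in AAV-GFP and 370, 151, 302 and 198 CPM in AAV-GSTA4, so that the groups did not overlap. The estimate was 1.17 ± 0.34 (log2 fold change, SE), where edgeR gave an adjusted p of 0.363, DESeq2 one of 0.0456 and limma-voom one of 0.0905. Spry4, an inhibitor of receptor tyrosine kinase signalling, was at 15.3, 8.22 and 8.30 CPM and at 40.3, 15.1, 34.8 and 26.0 CPM, and the groups overlapped. Its log2 fold change was 1.46 ± 0.39 (SE), where edgeR gave an adjusted p of 0.363, DESeq2 one of 0.0327 and limma-voom one of 0.0541. Zfp36l2, a paralog of Zfp36, was at 14.2, 17.01 and 10.4 CPM and at 9.99, 6.81, 5.40 and 8.55 CPM, a log2 fold change of -0.85 (edgeR adjusted p = 0.382). In AAV-GSTA4 replicate 3, where Dusp1 was lowest, Dusp6 and Spry4 had the second highest value of the 7 libraries. Both were highest in AAV-GSTA4 replicate 1, where Dusp1, at 52.6 CPM, was second highest, so the libraries showed no steady opposite order.

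Heat shock and chaperone genes, which are often induced with immediate early genes during tissue handling, were all tested: 13 of 18 had a positive and 5 a negative log2 fold change, with a median of 0.15 (-0.14 with library totals), and 0 had an unadjusted p-value under 0.05. Hspa8, a constitutive HSP70 chaperone, had a log2 fold change of 0.62 and Hspa1a, the inducible HSP70, of -0.64. Their summed level was 5999 CPM in AAV-GFP replicate 3 and between 8781 and 11785 CPM in the other 6 libraries. In AAV-GSTA4 replicate 3 it was 11004 CPM, a sum to which Ubb gave 4781 CPM and Hspa8 2332 CPM. The 3 of 18 genes at their lowest there were Hspa1b (9.34 CPM), the small heat shock gene Hspb1 (3.52 CPM) and the HSP40 gene Dnajb1 (65.7 CPM). Over all genes tested, 14.6% were lowest in that library. Hsp90aa1 (1218 CPM), Hspd1 (163 CPM) and Hspa5 (854 CPM) were at their highest of the 7 libraries there, and Hspa1a, at 7.57 CPM, was at neither end. Of the tested genes, that library was the lowest for 7 of 37 further immediate early genes, 2 of 15 AP-1 and ATF genes, 10 of 41 upstream genes, 2 of 19 feedback genes and 3 of 18 heat shock genes, beside 7 of the 9 members tested.

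**Figure D5:**
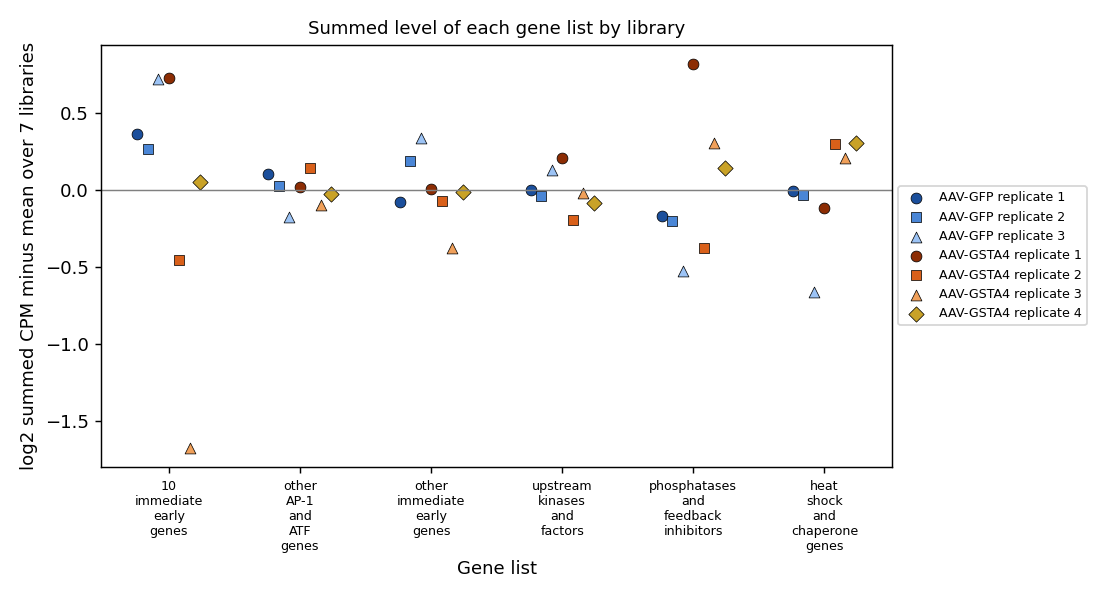
Summed TMM-scaled CPM of each gene list in each library, as log2 minus the mean over the 7 libraries. The sum of the 10 immediate early genes spans from 32.6 CPM in AAV-GSTA4 replicate 3 to 173 CPM in AAV-GSTA4 replicate 1, and in the other 5 lists AAV-GSTA4 replicate 3 lies closer to the rest.

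Genes outside the list with the most similar profile were found by the root mean square distance from the mean profile of the 9 genes, over 12475 genes and 7 libraries. Dapk1 was nearest at 0.13 log2 units, followed by Samd14 at 0.16, Prickle2 at 0.18, Tomm40 at 0.18 and Zbtb45 at 0.20, where the median gene was at 0.80. Among the members, Ier2 was nearest to their mean profile, at 0.15, and Egr1 farthest, at 0.94. Dapk1 measured 17.2, 13.7 and 21.6 CPM in AAV-GFP and 21.6, 11.1, 5.52 and 14.0 CPM in AAV-GSTA4. All 5 genes were lowest in AAV-GSTA4 replicate 3, which follows from how they were chosen, as the mean profile was itself lowest there (-1.38).

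Markers of other cell types also varied between the libraries. The 17 rod genes summed to 18285, 30505 and 46811 CPM in AAV-GFP and to 16765, 14406, 15752 and 9560 CPM in AAV-GSTA4, and all 17 had a negative log2 fold change. The 16 macrophage and microglia genes, a cell class that expresses immediate early genes readily, summed to 745 to 1504 CPM in AAV-GFP and 1072 to 1329 CPM in AAV-GSTA4, with 15 of 16 negative. The 13 endothelial genes summed to 208 CPM in AAV-GFP replicate 3 and to 46.9 to 70.5 CPM in the other 6 libraries. The 8 ocular surface epithelium genes summed to 77.4 and 88.0 CPM in AAV-GSTA4 replicates 1 and 3, the highest and the lowest library for the sum of the 10 genes, and to 576 to 869 CPM in the other 5. The 18 lens genes summed to 136320 CPM in AAV-GSTA4 replicate 2 and to 3285 to 28440 CPM elsewhere, and all 16 of those tested had a positive log2 fold change, with a median of 2.53. AAV-GSTA4 replicate 3, the low library of the 10 genes, had the highest sum of RPE markers, 113176 CPM, and lay within the range of the other libraries for the rod, macrophage and endothelial lists. AAV-GFP replicate 3, one of the 2 high libraries, had the highest rod and endothelial and the lowest RPE sums, whereas AAV-GSTA4 replicate 1, the other, had 16765 CPM of rod and 83620 CPM of RPE markers. In bulk RNA, fewer cells of a type and less RNA per cell cannot be told apart, and the part of these cell types in the levels of the 10 genes was not tested.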

How the data were processed

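RNA-seq of 7 RPE libraries was analysed. The authors deposited raw read counts, with gene symbols as rows and libraries as columns. Per the labels' protocols, full-length cDNA was made with SMART-Seq v4 and fragmented with Nextera XT. The submitters' processing notes name STAR 2.7.1a and featureCounts 1.6.2 with human and mouse builds; annotation, strand and multi-mapping settings are not given in the sources used here. Columns were matched by library name. Of the rows, 26 repeat a symbol and were kept, the highest keeping the plain symbol. No 2 libraries agreed within sampling noise (chi-square per gene at least 50.7).

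The whole table was tested with edgeR 4.0.16 (R 4.3.3): default expression filter, TMM scaling, robust quasi-likelihood F-test with group as factor, Benjamini-Hochberg adjustment over 15075 genes, threshold 0.05. SEs were derived from the estimate and its F statistic. Log2 CPM used a prior count of 2. Alternatives used DESeq2 1.42.0, limma 3.58.1, other scalings and filters, blocks and left-out libraries. The fit was tested on simulated counts: with no changed genes it called 0 of 14743. Named genes were the 10 members, the 3 smallest p-values of each of the 5 related lists and the 5 nearest profiles; 1 gene that this rule names is not reported here. Members and lists were chosen with earlier results of these data known. Promoters came from RefSeq (GRCm38.p6), exon lengths from GENCODE M21. The labels do not say that replicate numbers mark shared animals or batches, and no block was used.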

Additional observations from a re-analysis of the deposited data

Results flagged for a closer look

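Within AAV-GSTA4, the group of 4, 45 measures were examined for a library far from the other 3, and 5 of the 45 were found. The rule has a nominal rate of 5% of measures, which holds for independent, normally distributed values. These CPM values are correlated and some genes were chosen by their profile, so that rate gives no expected number here. The measures were the members, the other named genes, the sum of the members and the sums of the marker lists. Jun in AAV-GSTA4 replicate 3 was at 4.05 CPM, with the others at 15.2 to 16.8 CPM. Egr1 in AAV-GSTA4 replicate 1 was at 41.2 CPM, with the others at 1.41 to 3.79 CPM. Nr4a1 in the same library was at 6.62 CPM, with the others at 1.82 to 2.51 CPM. Atf7 in AAV-GSTA4 replicate 2 was at 36.96 CPM, with the others at 50.5 to 53.3 CPM. Klf4 in AAV-GSTA4 replicate 4 was at 5.93 CPM, with the others at 1.84 to 2.35 CPM.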

How the results depend on the processing

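Members past the adjusted threshold numbered 0 in all 16 alternatives, each planned with the design. Over all genes the count was 0 in edgeR, 201 with DESeq2, 146 with limma-voom and 1 with a replicate block by title number or by library number; the cause was not tested. It was 0 to 1 with 1 library left out, the 1 without AAV-GSTA4 replicate 3. Equal numbers did not deviate together (correlations of deviations -0.09, 0.000033 and 0.0090 by title), so they are not taken as pairs. Of 144 alternative fold changes of the 9 members, 131 kept their direction and 13 did not. Among the latter, library totals gave -0.079 for Fos, -0.0046 for Egr1 and -0.11 for Nr4a1, and limma-voom gave -0.31 for Fos, -0.80 for Egr1 and 0.088 for Zfp36. The replicate block gave -0.50 (title) and -0.91 (library number) for Egr1. Without AAV-GSTA4 replicate 1, Fos was -0.34, Egr1 -1.80 and Nr4a1 -0.39; without AAV-GFP replicate 1, Nr4a1 was -0.0054; without AAV-GFP replicate 3, Zfp36 was 0.10. Leaving out 1 library gave -0.34 to 0.43 for Fos, -1.80 to 1.15 for Egr1, -0.39 to 0.55 for Nr4a1 and -0.53 to 0.10 for Zfp36. The median of highest over lowest was 5.47 with library totals, and 2.66 to 3.85 with 1 library left out. With library totals the medians were -0.60 for further immediate early genes, -0.56 for upstream genes and -0.22 for feedback genes, and the summed Mueller glia markers had a log2 ratio of 0.33 (0.61 with TMM), although 6 of their 10 genes were lower, with a median of -0.59 (-0.90 with library totals); limma-voom gave -0.075 for upstream genes. Library totals shift the median of all genes to -0.37. With 1 library left out the upstream median was -0.31 to -0.073 and the endothelial marker ratio -1.18 to 0.081 (log2), the latter without AAV-GFP replicate 3. Fosb, at 2 to 27 counts, was limited by depth.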

Other observations

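Some further immediate early genes outside the naming rule were looked at after their values were seen, so they do not show how common their order of libraries is. Nr4a3, a paralog of Nr4a1, measured 1.07, 0.81 and 2.11 CPM in AAV-GFP and 2.37, 0.19, 0.76 and 0.37 CPM in AAV-GSTA4, so its 2 highest libraries were the same as for Nr4a1, Egr1 and Ier2. Nr4a2, the third of the family, did not share this order, with 3.17, 1.77 and 0.48 CPM in AAV-GFP and 3.94, 1.87, 2.82 and 1.70 CPM in AAV-GSTA4. Nor did Egr2, of the EGR family, with 0.466, 1.39 and 0 CPM in AAV-GFP and 0.526, 0.0959, 0.705 and 0.995 CPM in AAV-GSTA4. Arc, a gene of neuronal activity, was at 2.94 CPM in AAV-GSTA4 replicate 1, 1.68 CPM in replicate 2 and 0.59 CPM or less in the other 5 libraries. Btg2, an antiproliferative early gene, was highest in AAV-GFP replicate 3 at 82.2 CPM and second in AAV-GSTA4 replicate 1 at 52.5 CPM, with the other 5 libraries at 24.3 to 44.3 CPM.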
